A study of Mus musculus with 18 samples.

Results

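Dcn, Lum, Ogn, Islr, Cldn11, Colec12, Nbl1, Lgals1, Foxc1 and S100a11 are genes of the fibroblasts of the meninges that encode no collagen. These 10 genes were picked because several of them rose strongly in Kdm2b cKO cortex, so their cortical differences are given as a description and carry no test. The cortical table held 54429 gene names, and all 10 were found under their own name in each of the 4 tables of the series. The members were read in 18 RNA-seq libraries of postnatal day 0 mice. Hippocampi came from 3 control and 3 Kdm2b cKO libraries, hippocampal neurospheres and cortices from 2 control and 2 Kdm2b cKO libraries each, and a further set of hippocampi from 2 control and 2 Rnf2 cKO libraries. Kdm2b controls were Kdm2bfl/+ or Kdm2bfl/fl, which the labels do not tell apart, and the cKO was Kdm2bEmx1-delta-CxxC, in which the exon for the CxxC zinc finger is lost, so that the KDM2B made lacks this finger. Rnf2 controls were Rnf2fl/+ or Rnf2fl/fl and the cKO was Rnf2Emx1-cKO. In each cKO the Emx1-Cre driver acts in the progenitors of the dorsal telencephalon, which give rise to its neurons and glia but not to the meninges or blood vessels. Neurospheres were hippocampal progenitors grown in suspension with FGF2 and EGF. The labels do not say that libraries came from separate animals, so p values measure the spread between these libraries only.

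The meninges are connective tissue sheets around the brain, and their fibroblasts lay down collagens and proteoglycans, secrete retinoic acid and BMP ligands, and follow vessels into the tissue. Decorin (Dcn), lumican (Lum) and osteoglycin (Ogn) are small leucine-rich proteoglycans of the extracellular matrix that bind collagen fibrils. KDM2B binds unmethylated CG dinucleotides through its CxxC zinc finger and recruits a variant Polycomb repressive complex, PRC1.1, whose ubiquitin ligase is Ring1B, the product of Rnf2.

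Because the CxxC finger reads CG dinucleotides, promoter sequences of 4 members that differ in CG content are shown. Promoters of 6 of the 10 members were matched by symbol in a RefSeq table for GRCm38.p6, namely Ogn, Islr, Cldn11, Nbl1, Foxc1 and S100a11. Below are the 250 bases before the RefSeq start of 4 of them, 5′ to 3′ on the strand of the gene, with each CG in capitals. Ogn lies at chr13:49607765-49608014 (plus strand), Islr at chr9:58158555-58158804 (minus strand), Cldn11 at chr3:31149670-31149919 (plus strand) and Foxc1 at chr13:31806396-31806645 (plus strand).
Islr: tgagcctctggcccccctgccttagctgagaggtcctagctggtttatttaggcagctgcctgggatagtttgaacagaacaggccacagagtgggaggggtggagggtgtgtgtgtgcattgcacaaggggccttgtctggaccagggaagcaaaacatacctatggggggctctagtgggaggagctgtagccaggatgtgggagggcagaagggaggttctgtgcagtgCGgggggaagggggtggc
Ogn: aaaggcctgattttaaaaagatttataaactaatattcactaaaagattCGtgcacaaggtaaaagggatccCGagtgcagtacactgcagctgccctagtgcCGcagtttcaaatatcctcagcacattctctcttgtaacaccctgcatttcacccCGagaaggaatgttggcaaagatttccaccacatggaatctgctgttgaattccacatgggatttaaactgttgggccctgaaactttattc
Cldn11: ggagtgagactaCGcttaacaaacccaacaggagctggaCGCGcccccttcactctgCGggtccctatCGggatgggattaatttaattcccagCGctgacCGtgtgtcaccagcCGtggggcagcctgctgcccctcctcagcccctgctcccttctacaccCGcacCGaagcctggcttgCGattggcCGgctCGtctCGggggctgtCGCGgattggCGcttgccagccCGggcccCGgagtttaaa
Foxc1: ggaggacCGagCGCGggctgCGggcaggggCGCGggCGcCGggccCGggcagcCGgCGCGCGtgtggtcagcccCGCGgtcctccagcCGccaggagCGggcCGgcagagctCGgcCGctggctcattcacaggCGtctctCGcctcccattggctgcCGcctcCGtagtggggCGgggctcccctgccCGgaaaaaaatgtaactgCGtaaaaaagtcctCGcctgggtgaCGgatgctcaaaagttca

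The letters CG, which read the same on both strands, were found 1 time in the Islr window and 4 times in that of Ogn. The S100a11 window held 11, Cldn11 19, Foxc1 29 and Nbl1 36. The median of all 32851 promoters was 6, and 92.1% of them held at least 1. As many CG as in the Nbl1 window or more were found in 2.58% of all promoters, as many as in that of Foxc1 in 6.78%, and as many as in that of Cldn11 in 19.7%. As few CG as in the Ogn window or fewer were found in 44.4%, and as few as in that of Islr in 18.8%. These 6 windows therefore ran from 1 to 36 CG, where all promoters ran from 0 to 56. The Islr window lies inside the Islr gene of the deposited annotation, which starts further upstream. These counts describe letters and say nothing of KDM2B binding or of methylation.

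**Figure D1:**
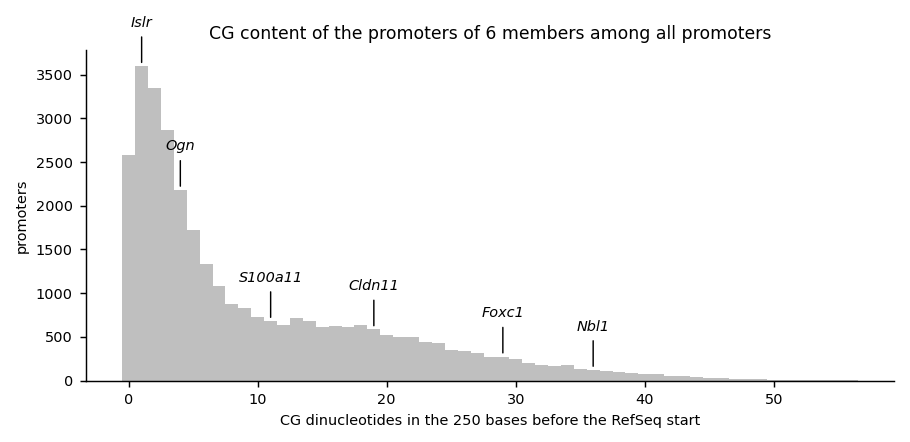
Number of promoters (bars, y axis) by the count of CG dinucleotides in the 250 bases before the RefSeq start (x axis), with 6 members marked. Islr (1) lies at the low end, Ogn (4) just under the median of 6, S100a11 (11) and Cldn11 (19) further up, and Foxc1 (29) and Nbl1 (36) in the upper tail.

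The deposited annotation of the cortical and Rnf2 tables gives gene positions on GRCm38. Dcn (ENSMUSG00000019929, chr10:97479609-97518143) and Lum (ENSMUSG00000036446, chr10:97565128-97572703) are neighbours with 46984 bases between them, and Kera and Epyc, of the same proteoglycan family, follow them. Ogn (ENSMUSG00000021390) spans chr13:49608046-49624501, next to Omd and Aspn of the same family. Foxc1 (ENSMUSG00000050295) is also on chromosome 13, at 31806633 to 31812476. Cldn11 (ENSMUSG00000037625, chr3:31149920-31164324) and S100a11 (ENSMUSG00000027907, chr3:93520488-93526287) share chromosome 3. Islr (ENSMUSG00000037206) lies at chr9:58156268-58204306, Nbl1 (ENSMUSG00000041120) at chr4:139082284-139092993 and Lgals1 (ENSMUSG00000068220) at chr15:78926725-78930465. The values were gene-level FPKM (fragments mapped to a gene, scaled by transcript length and library depth), computed by the authors and deposited by table. The pseudogenes Lgals1-ps1, Lgals1-ps2 and S100a11-ps were at 0 in every cortical and Rnf2 library.

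Whole reads could be recovered from the cortical and Rnf2 values, and gave 18480515 to 21905224 reads on genes per cortical library and 14654894 to 16334420 per Rnf2 library. Depth by library could not be recovered for the Kdm2b hippocampi and the neurospheres, and the paper gives only a general figure for sequencing depth. Neurosphere libraries differed in their FPKM totals, from 452580 to 855276, against 363633 to 383249 in Kdm2b hippocampi. The targeted genes did not pass the thresholds in any table. Kdm2b was at 29.4 ± 2.15 FPKM in controls and 27.2 ± 0.992 in cKO hippocampi (SD, n = 3 each), and Rnf2 was at 31.5 ± 1.02 in control and 28.1 ± 0.494 in Rnf2 cKO hippocampi (SD, n = 2 each), where both cKO libraries lay below both controls. A gene-level value does not check the loss of an exon, so the labels were not tested by it. The labelled tissues could be told by their markers. Cortical neuron genes summed to 226 to 251 FPKM in control cortices and 84.8 to 91.6 in Rnf2 control hippocampi, and the hippocampal genes Zbtb20 and Prox1 to 5.63 to 7.38 against 40.8 to 59.7. In neurospheres progenitor genes summed to 1588 to 1695 FPKM in the controls and 2818 to 3860 in the cKO. Neuronal genes summed to 270 to 280 against 220 to 246, and genes of the oligodendrocyte lineage to 2323 to 2406 against 2439 to 2497.

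In the cortex, all 10 members were higher in both cKO libraries than in both controls. Every cKO library lay above every control for 22% of all genes tested in the cortex. All 10 members also passed the thresholds of a log2 fold change of 0.4 and an unadjusted p of 0.05 (limma on log2(FPKM + 1)), which 4.73% of the 15691 genes passed upwards and 2.28% downwards. The members were picked on this contrast, so nothing is read from those counts, and the counts of other gene lists in the cortex are likewise given as a description. The median log2 fold change of the members was 1.998, against -0.0053 over all genes. Of the 10 members, 6 had a control mean under the 0.5 FPKM that a test required and were tested only because of their level in the cKO. This scale understates the change of low values, so ratios of mean FPKM are given below, with the recovered reads behind them.

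The matrix proteoglycans went from near 0 to several FPKM. Dcn was at 0.303 and 0.443 FPKM in the controls and 5.58 and 6.18 in the cKO cortices, a ratio of 15.8, from 39 and 55 reads to 640 and 675. Lum was at 0.241 and 0.288 in the controls, from 13 and 15 reads, and at 6.28 and 3.89 in the cKO, a ratio of 19.2. Its cKO libraries differed from each other by 1.62 times, yet the lower of them was 13.5 times the higher control. Ogn was at 0.477 and 0.697 in the controls and 5.08 and 5.75 in the cKO, a ratio of 9.23. Both cKO libraries were thus high for all 3 proteoglycans.

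Among members of the cell surface, Cldn11 and Colec12 had the highest ratios of the 10. Cldn11 encodes a claudin, a tight junction protein of the arachnoid barrier and also of oligodendrocyte myelin. It was at 0.170 and 0.377 FPKM in the controls, from 7 and 15 reads, and at 7.65 and 8.84 in the cKO, from 281 and 309 reads. The ratio of 30.1 was the highest of the 10 members and rests on few control reads. Colec12, a scavenger receptor with a collagen-like stem, was at 0.328 and 0.382 in the controls and at 10.3 and 6.71 in the cKO, a ratio of 24.0. Islr, a surface protein with leucine-rich repeats, was at 0.456 and 0.543 against 4.17 and 4.28, a ratio of 8.46. The Islr values of the cKO libraries were close to each other, and those of Colec12 differed by 1.54 times.

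The remaining members started higher or changed less. Nbl1, a secreted antagonist of BMP ligands, was at 1.41 and 1.48 FPKM in the controls and 7.36 and 6.39 in the cKO, a ratio of 4.76. Lgals1, a galactoside-binding lectin found in many mesenchymal cells, was at 5.13 and 5.05 against 22.8 and 23.2, a ratio of 4.52. S100a11, a calcium-binding protein, was at 5.06 and 5.71 against 17.9 and 17.5, a ratio of 3.29. These 3 genes are transcribed in many cell types, and their control values were the highest of the members. Foxc1, the forkhead factor needed for the formation of the meninges, was at 0.357 and 0.427 in the controls and 1.33 and 1.29 in the cKO, a ratio of 3.35. Its log2 fold change of 0.73 on the log2(FPKM + 1) scale was the lowest of the 10, but S100a11 was lower by ratio and also in limma-voom on recovered reads, at 1.72 against 1.74 for Foxc1. The Foxc1 groups did not overlap, with the lower cKO library at 3.02 times the higher control.

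**Figure D2:**
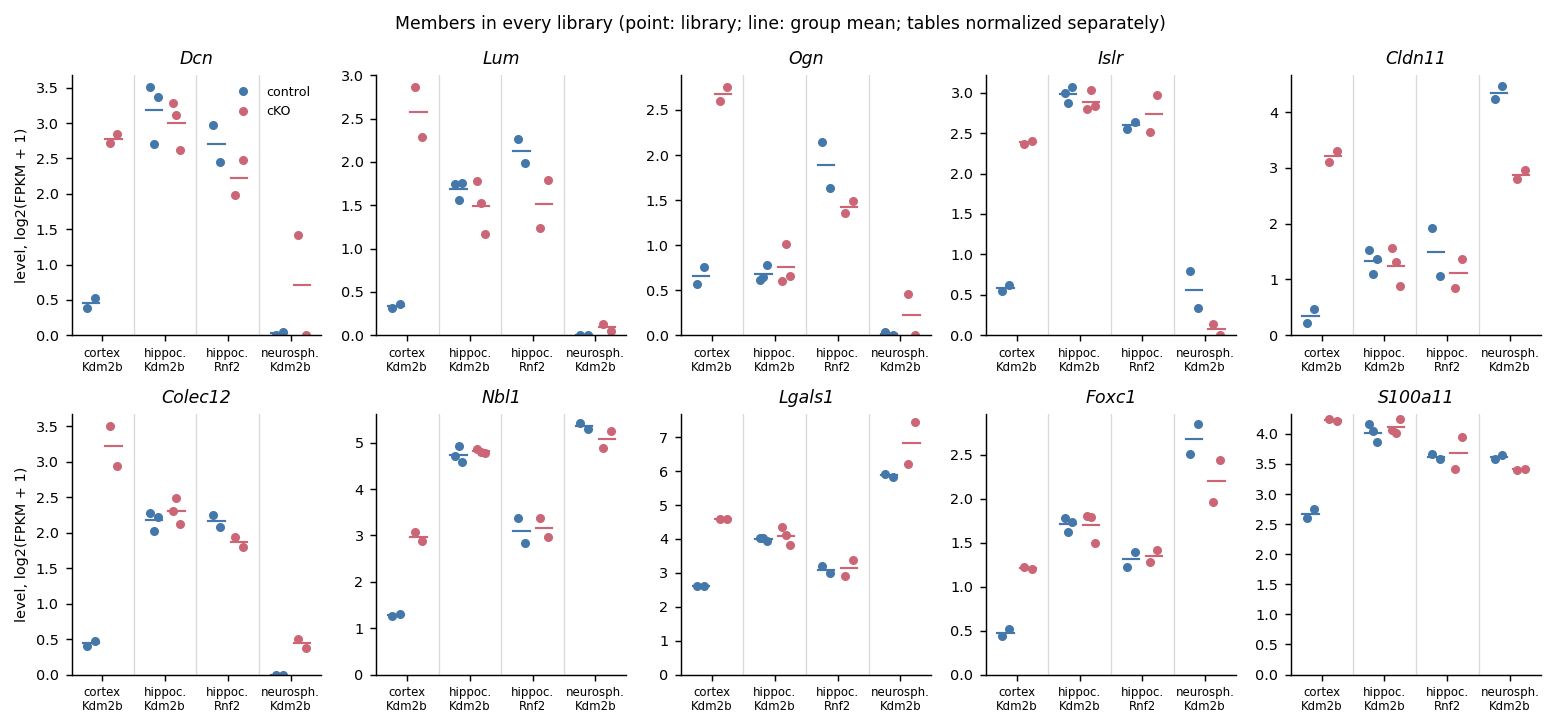
Level of each member as log2(FPKM + 1) (y axis) in every library (points) with group means (lines), for controls (blue) and cKO (red) of the cortical, Kdm2b hippocampal, Rnf2 hippocampal and neurosphere tables (x axis), which were normalized separately. In the cortex both cKO points lie above both control points for all 10 genes. In Kdm2b hippocampi the groups overlap for all 10.

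The control cortices were low beside hippocampal libraries of the other tables, which were normalized separately, so these values are set side by side without a test. For all 10 members both control cortices lay below all 4 libraries of the Rnf2 table, and for 9 also below all 6 Kdm2b hippocampi. The exception was Ogn, at 0.477 and 0.697 FPKM in control cortex and 0.517 to 1.02 in Kdm2b hippocampi. The cKO cortices lay above all 10 hippocampal libraries for Lum, Ogn, Cldn11, Colec12 and Lgals1, within their range for Dcn, Nbl1 and S100a11, and below them for Islr and Foxc1. Dcn, for example, was at 5.58 and 6.18 FPKM in cKO cortex, at 2.95 to 6.85 in the Rnf2 table and at 5.12 to 10.4 in Kdm2b hippocampi.

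Other genes of meningeal cells were higher in the same cKO cortices. Of 20 tested genes among 27 other genes of meningeal fibroblasts, 17 passed the thresholds upwards and 0 downwards, 5 of them with an adjusted p. Of the 20, 13 had control means under 0.5 FPKM and so were tested only through their level in the cKO, which favours passing upwards. Their summed level was 84.7 to 93.3 FPKM in the controls and 157 to 180 in the cKO. Igfbp2, a binding protein of insulin-like growth factors that neural cells also make, took most of that sum, at 76.2 ± 6.80 against 94.1 ± 15.5 FPKM (SD, n = 2). Ptgds, a prostaglandin D synthase, was at 1.69 ± 0.796 against 15.7 ± 8.73, and Crabp2, which binds retinoic acid, at 0.944 ± 0.0735 against 12.1 ± 0.445. Of the other small leucine-rich proteoglycans, 2 of 3 tested passed upwards, 0 with an adjusted p. Biglycan (Bgn) was at 1.47 ± 0.0214 against 4.44 ± 1.17 FPKM and fibromodulin (Fmod) at 0.198 ± 0.143 against 1.72 ± 0.510. With a control mean under 0.5 FPKM, Fmod was tested only through its level in the cKO. Podn, the third proteoglycan tested, was at 1.30 ± 0.0943 against 1.55 ± 0.0883 and did not pass.

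The neighbours of the members on chromosomes 10 and 13, named for their position after values had been seen, were all too low in the cortex to be tested. Mean FPKM went from 0.0696 to 0.523 for Aspn, from 0.0101 to 0.293 for Omd and from 0.0092 to 0.196 for Epyc, while Kera was at 0.0306 in the controls and at 0 in the cKO. Meningeal collagens, at 3.81 to 4.25 FPKM in sum in the controls, were at 34.7 and 16.2 in the cKO, and 7 of 9 passed upwards, 0 with an adjusted p, with 6 of the 9 tested only through their level in the cKO. The ratio of cKO library 1 to cKO library 2 ran from 1.43 (Col12a1) to 2.91 (Col6a3) for the collagens and from 0.866 (Cldn11) to 1.62 (Lum) for the members, so the ranges overlapped. These collagens are named after their values were seen.

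Genes of other cells of the brain surface and vessels were also higher in the cKO cortices. Border macrophages, which live in the meninges and around vessels and are marked here by Mrc1, Lyve1, F13a1, Cd163 and Pf4, had a summed level of 0.453 to 0.458 FPKM in the controls and 13.4 to 23.2 in the cKO, a ratio of 40.1. Every one of the 4 tested genes had a control mean under 0.5 FPKM and was tested only through its level in the cKO, so no count of passing genes is read here. Pf4 was at 0.158 ± 0.132 in the controls and 9.07 ± 2.65 in the cKO (SD, n = 2). Endothelial genes were at 53.2 to 56.5 against 81.0 to 82.2 (4 of 11 passed upwards), mural genes at 28.7 to 29.1 against 38.2 to 42.1 (2 of 7), microglial genes at 25.4 to 28.9 against 37.9 to 45.8 (4 of 10), and blood genes at 435 to 454 against 624 to 712 (3 of 5). None of the endothelial, mural, microglial and blood lists had a gene that passed downwards, and 0 genes of these 4 lists passed with an adjusted p in limma. Of the 7 mural genes tested, 1 had a control mean under 0.5 FPKM and was tested only through its level in the cKO.

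Choroid plexus genes were at 1.65 to 2.53 against 4.06 to 4.86 FPKM. Of 10 listed genes only 2 were tested, and both passed upwards, 0 with an adjusted p. Of these 2, 1 had a control mean under 0.5 FPKM and was tested only through its level in the cKO, so nothing is read from this count. Neuronal genes were at 2253 to 2291 against 2158 to 2178, with 0 of 12 passing in either direction, and cortical neuron genes at 226 to 251 against 224 to 266, with 0 of 6. The hippocampal genes Zbtb20 and Prox1 were lower in both cKO cortices, at 5.63 to 7.38 FPKM in sum against 4.18 to 4.37, and Zbtb20 passed downwards. In bulk tissue, more cells of a type and more RNA per cell cannot be told apart, and the share of meninges and vessels taken with each cortex was not measured. Their part in the differences of the members was not tested.

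**Figure D3:**
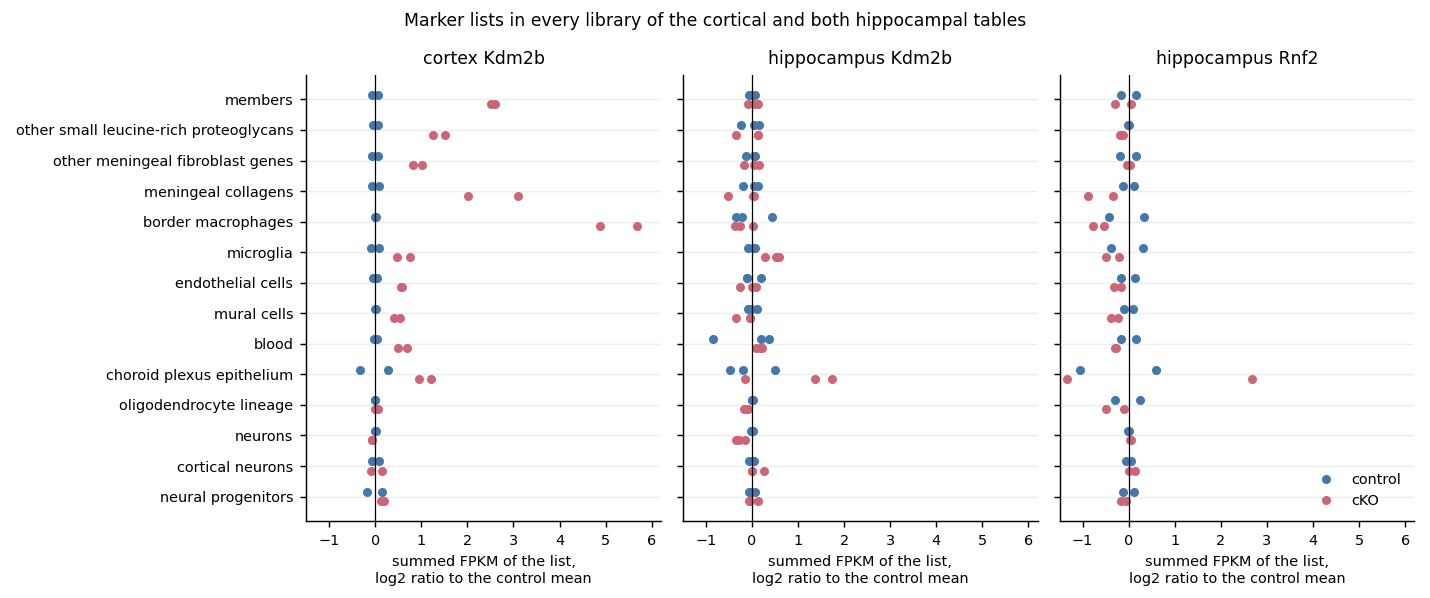
Summed FPKM of each gene list as a log2 ratio to the mean of the controls (x axis) in every library (points) of the cortical, Kdm2b hippocampal and Rnf2 hippocampal tables, for controls (blue) and cKO (red). In the cortex the points of the members, meningeal collagens and border macrophages (ratio 40.1) lie furthest to the right, vascular, blood and microglial lists less so, while the general and cortical neuron lists lie near 0. The hippocampal neuron and targeted gene lists are not drawn.

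The hippocampus of the same genotype gave a comparison that the choice of members did not use. No member passed the thresholds, against 3.89% of 13446 genes upwards and 2.25% downwards (limma). At such shares few or none of 10 genes would pass, so this count does not show that the members were unchanged. Log2 fold changes ran from -0.20 to 0.13, with a median of 0.025 against 0.0084 over all genes. The lowest unadjusted p was 0.245, and adjusted p values ran from 0.511 to 0.952. Controls and cKO overlapped for all 10 members.

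Dcn was at 10.4, 5.49 and 9.30 FPKM in the controls and 8.72, 7.66 and 5.12 in the cKO hippocampi, a log2 fold change of -0.19 (95% interval -0.69 to 0.31). Without control library 2, the lowest control, it was -0.43 and passed the thresholds (adjusted p = 0.206 in limma). Lum was at 2.36, 1.95 and 2.37 against 2.44, 1.88 and 1.24, a log2 fold change of -0.20 (-0.55 to 0.16). Control 2 and cKO 3 were the lowest libraries of their groups for both proteoglycans. Ogn was the lowest of the 10 members here, at 0.533, 0.567 and 0.717 against 0.517, 1.02 and 0.572, a log2 fold change of 0.07 (-0.24 to 0.39). Cldn11 was at 1.87, 1.13 and 1.58 against 1.95, 1.47 and 0.845, a log2 fold change of -0.08 (-0.49 to 0.34). Its cKO library 3 was again the lowest of all.

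Colec12 had the largest positive difference, 0.13 (-0.14 to 0.40), at 3.85, 3.06 and 3.67 FPKM against 3.95, 4.61 and 3.35. Nbl1 was the highest of the 10 in this table, at 25.3, 29.3 and 23.1 against 27.9, 26.7 and 26.6. Lgals1 was at 15.2, 15.3 and 14.4 against 19.3, 16.3 and 13.1, and S100a11 at 16.9, 15.4 and 13.5 against 15.8, 15.1 and 18.02. The groups overlap in each of these, and S100a11 and Lgals1 could not be ordered by level within controls. Foxc1 was at 2.44, 2.07 and 2.33 against 2.48, 2.47 and 1.82, and Islr at 6.98, 6.30 and 7.40 against 5.97, 7.19 and 6.12. The highest upper bound of the 10 intervals was 0.40, and the lowest lower bound was -0.69, for Dcn.

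The other genes of meningeal fibroblasts showed 1 of 21 tested past the thresholds upwards and 1 downwards in Kdm2b hippocampi, and both are named after their values were seen. Bmp7, a BMP ligand also made by neural progenitors and choroid plexus, rose by 0.76 on the log2 scale (adjusted p = 0.0155), and S100a6, a calcium-binding protein, fell by 0.43 on the log2 scale (adjusted p = 0.0671). Of the other small leucine-rich proteoglycans 1 of 5 tested passed upwards, Podn, at 1.77 FPKM in the controls and 3.07 in the cKO on average. Collagens passed in neither direction (0 of 9), nor did border macrophage genes (0 of 5). Border macrophage sums were 12.2 to 21.2 FPKM in the controls and 12.2 to 15.8 in the cKO. Microglial genes were higher in the same cKO libraries, with 7 of 12 past the thresholds upwards, and choroid plexus sums were 15.5 to 30.5 against 19.4 to 72.6. Microglial genes were thus higher in sum, while the sums of the meningeal lists overlapped between groups.

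In Rnf2 hippocampi, Lum was the only member past the thresholds, and it was lower in the cKO. Upwards passed 2.86% and downwards 1.85% of 15764 genes (limma), and no gene of this table passed with an adjusted p, while 742 passed the fold change and unadjusted thresholds, and 756 did so in limma-voom on recovered reads. Lum was at 3.79 and 2.97 FPKM in the controls and 1.36 and 2.45 in the cKO, from 139, 113, 55 and 97 reads. Both cKO libraries were below both controls, and the log2 fold change was -0.61 ± 0.23 (SE, unadjusted p = 0.0409 and adjusted p = 0.683 in limma). It did not pass without cKO library 1 (-0.34), control library 1 (-0.48) or control library 2 (-0.75).

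Ogn and Colec12 also had both cKO libraries below both controls without passing. The share of all genes with this order was not computed in Rnf2 hippocampi, so nothing is read from it for Lum, Ogn or Colec12. Ogn was at 3.41 and 2.10 FPKM against 1.56 and 1.81, a log2 fold change of -0.47 (95% interval -1.0035 to 0.07), which passed only without control library 2, at -0.72. Colec12 was at 3.76 and 3.25 against 2.84 and 2.47, a log2 fold change of -0.30 (-0.67 to 0.07). Dcn was at 6.85 and 4.46 against 2.95 and 4.57, so the groups overlapped, and its log2 fold change was -0.48 (-1.10 to 0.14). Cldn11 was at 2.79 and 1.10 against 0.809 and 1.59, and control library 1 was by itself the highest.

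The other 5 members overlapped between the groups with differences of 0.03 to 0.14 on the log2 scale. Islr was at 4.85 and 5.24 FPKM against 4.69 and 6.83, Foxc1 at 1.34 and 1.63 against 1.42 and 1.66, and Nbl1 at 9.34 and 6.17 against 9.38 and 6.81. Lgals1 was at 8.14 and 6.98 against 6.501 and 9.44 and S100a11 at 11.6 and 10.9 against 9.71 and 14.5, where cKO library 2 was the highest for each. The widest interval of these 5 was that of Nbl1, -0.51 to 0.64.

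None of 5 other small leucine-rich proteoglycans passed. Collagens were lower in the same libraries, with 4 of 9 past the thresholds downwards at unadjusted p values. Col3a1 was at 10.3 ± 0.120 FPKM in the controls and 5.28 ± 1.16 in the cKO, a log2 fold change of -0.87 ± 0.16 (SE, adjusted p = 0.517 in limma), and Col1a1 was at 10.2 ± 1.82 against 5.38 ± 1.74 (SD, n = 2). Of 16 other tested meningeal genes 2 passed downwards, Tbx18 and Slc6a13, which are named after their values were seen. Tbx18, a T-box factor of meningeal and mural cells, had a log2 fold change of -0.49, and Slc6a13, a GABA transporter of the leptomeninges, one of -0.41. Sums of mural genes were 56.2 to 65.2 against 46.3 to 51.6, of endothelial genes 83.9 to 104 against 75.0 to 83.3, and of border macrophage genes 7.41 to 12.6 against 5.88 to 6.88. Blood sums were 217 to 271 against 197 to 201. All these sums were lower in both cKO libraries. So were the sums of collagens, at 39.5 to 46.6 FPKM against 23.5 to 34.0. The other small leucine-rich proteoglycans were also lower in both, at 13.2 to 13.3 against 11.7 to 12.2. The sum of neuronal genes was higher in both, at 1769 to 1801 against 1821 to 1848. The following sums overlapped between the groups. The other meningeal fibroblast genes were at 94.7 to 122 FPKM in the controls against 105 to 111 in the cKO. Members were at 44.8 to 55.9 against 41.2 to 52.1, and microglial genes at 55.9 to 90.8 against 51.9 to 63.0. The part of any of these lists in the value of Lum was not tested. Choroid plexus genes stood apart in cKO library 1, at 255 FPKM in sum. They were at 16.0 in the other cKO library and at 60.9 and 19.3 in the controls. Lum was lowest in cKO library 1, as were Dcn, Ogn, Islr, Cldn11, Lgals1 and S100a11, while Colec12, Nbl1 and Foxc1 were not.

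The difference between Kdm2b and Rnf2 hippocampi was tested directly as the interaction of genotype and table. No member passed at an adjusted p of 0.05, which 0.683% of 11266 genes passed (limma). The lowest unadjusted p values were those of Colec12, with a difference of -0.43 (95% interval -0.84 to -0.02, adjusted p = 0.300), and Ogn, with -0.54 (-1.08 to -0.00344, adjusted p = 0.319). For Lum the difference was -0.42 (-1.03 to 0.19).

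**Figure D4:**
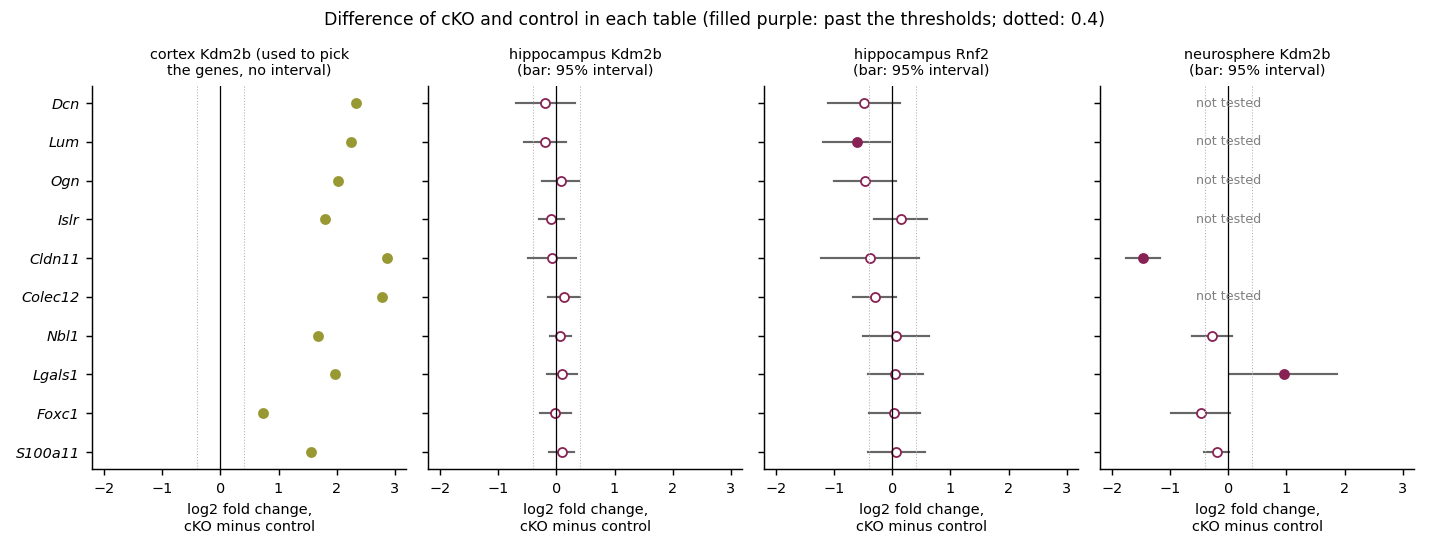
Log2 fold change of cKO against control (x axis) of each member (rows) in the 4 tables. Bars are 95% intervals and filled purple points passed the thresholds. The cortical points, which served to pick the genes and have no interval, run from 0.73 (Foxc1) to 2.86 (Cldn11), the Kdm2b hippocampal points lie within -0.20 to 0.13, Lum is at -0.61 in Rnf2 hippocampi, and Cldn11 and Lgals1 are at -1.47 and 0.95 in neurospheres.

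Neurospheres divided the members into genes that cultured neural progenitors held and genes near 0. Dcn, Lum, Ogn, Islr and Colec12 were below the mean of 0.5 FPKM that a test required. Lum and Colec12 were listed at 0 in both controls, Dcn was at 0 and 0.0372, and Ogn was at 0.0221 and 0. In cKO library 1, Dcn was at 1.67, Colec12 at 0.421, Ogn at 0.373 and Lum at 0.0977, and in cKO library 2 these were at 0, 0.293, 0 and 0.0319. Blood genes summed to 1.37 in the same cKO library 1 and to 0 in cKO library 2, and to 0.0899 and 0 in the controls. Islr was at 0.735 and 0.262 in the controls and 0.104 and 0 in the cKO, so both cKO libraries were lower.

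Cldn11 fell in cKO neurospheres. It was at 17.8 and 21.0 FPKM in the controls and 5.99 and 6.76 in the cKO, with no overlap, and the log2 fold change was -1.47 ± 0.12 (SE, adjusted p = 0.00183 in limma). Among all genes 13.2% of 12227 passed downwards and 11.4% upwards in this table, that is 1392 genes upwards and 1620 downwards. With libraries rescaled to the same FPKM total, 1256 genes passed upwards and 830 downwards, the median over all genes shifted by 0.11 on the log2 scale, and Cldn11 was at -1.36. Genes of the oligodendrocyte lineage, where Cldn11 is also transcribed, fell in the same libraries, with 3 of 5 tested past the thresholds downwards. They were Cnp, Mbp and Sox10, of which the last 2 are named after their values were seen. Cnp, an enzyme of myelin, was at 96.6 FPKM in the controls on average and 35.0 in the cKO, a log2 fold change of -1.44 (adjusted p = 0.0011). Mbp, the myelin basic protein, went from 14.4 to 1.70, and Sox10, a factor of the lineage, from 10.8 to 4.77. Olig1 and Olig2, transcribed already in progenitors, were at 1740 and 502 FPKM in the controls and 1921 and 505 in the cKO and did not pass. The part of this lineage in the fall of Cldn11 was not tested.

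Lgals1 was higher in cKO neurospheres by the thresholds only. It was at 59.4 and 56.3 FPKM in the controls and 73.2 and 174 in the cKO, with a log2 fold change of 0.95 ± 0.37 (SE, unadjusted p = 0.0443 and adjusted p = 0.121 in limma). Both cKO libraries were above the controls, and cKO library 2 was far above cKO library 1. Without cKO library 2 the value was 0.33 and did not pass, and without cKO library 1 it was 1.57. Without control library 1 (0.99) or control library 2 (0.92) it did not pass either. With rescaled totals it was 1.07 (adjusted p = 0.00597 in limma).

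Nbl1, Foxc1 and S100a11 had both cKO libraries below both controls without passing. The share of all genes with this order was not computed in neurospheres, so nothing is read from the order itself. Nbl1 was at 41.6 and 38.0 FPKM against 28.5 and 37.4, a log2 fold change of -0.28 (95% interval -0.62 to 0.07). Foxc1 was at 4.69 and 6.18 against 2.89 and 4.44, a log2 fold change of -0.47 (-0.98 to 0.03). S100a11 was at 10.9 and 11.5 against 9.53 and 9.72, a log2 fold change of -0.20 (-0.42 to 0.02). Without cKO library 2, Foxc1 passed at -0.72 and Nbl1 at -0.47. The other genes of meningeal fibroblasts were uneven in these cultures. Of 25 with an entry of their own, 6 were at 0 in both controls and 8 were high enough to be tested, of which 1 passed upwards and 3 downwards. Their sum was 793 to 800 FPKM in the controls, led by Igfbp2, Ptgds and Bmp7, which neural cells also make. Tbx18 and Twist2 were at 0 in all 4 libraries, and Col3a1 and Col1a2 at 0 in both controls, while collagens summed to 2.04 to 2.87 FPKM there, with 2 of 9 tested.

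The difference between hippocampus and neurospheres was tested for the 5 members measured in both. Cldn11 passed, with a difference of -1.39 (95% interval -1.97 to -0.81, adjusted p = 0.00328 in limma), at a rate of 26.9% of 11075 genes. Lgals1, with 0.86 (0.03 to 1.69, adjusted p = 0.117), and Nbl1, Foxc1 and S100a11, with -0.35, -0.46 and -0.29, did not pass. Lgals1 passed without neurosphere cKO library 1 (1.48) and with rescaled totals (0.96), and Nbl1 (-0.54) and Foxc1 (-0.70) passed without neurosphere cKO library 2.

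The members did not vary as a single group across hippocampi. Over the 10 hippocampal libraries, with table means removed, each was compared with the mean of the other members by Pearson's r. This is given as a description, since the libraries share their tissue and depth by library is unknown for 6 of them. Cldn11 (0.95), Dcn (0.87) and Lum (0.82) followed the others closely, Lgals1 (0.60), Ogn (0.58) and Colec12 (0.54) less so, and Foxc1 (0.37), Islr (0.18), S100a11 (0.08) and Nbl1 (-0.17) hardly. The collagens Col1a2 and Col3a1 were at 0.80 each and Col1a1 at 0.70 with the mean of all 10 members. Outside the lists, the genes most like the mean of the members were Fcf1, Rpl10, A230072C01Rik, Emc3, Pmp22, Hey1, Tpt1, Prkra, Atxn10 and Spns1, with r from 0.91 to 0.95 among 11266 genes. The mean of the members itself ranged only from -0.23 in Rnf2 cKO library 1 to 0.24 in Rnf2 control library 1, on the log2 scale.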

How the data were processed

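RNA-seq of postnatal day 0 tissue was analysed in 18 libraries, grouped by their deposited labels. For hippocampi and neurospheres the authors selected poly(A) RNA and sequenced paired ends. The submitters' processing notes name cutadapt, STAR, Cufflinks 2.2.1 and DESeq2 (mm10, GRCm38) for every library, and all deposited values used here are FPKM made by the authors. The methods describe no separate steps for the cortical and Rnf2 tables, whose layout differs. In the latter 2 tables FPKM times gene length is a whole multiple of 1 step per library, which gave whole reads. Of values under 200 reads, 100% were within 0.05 of a whole read. Depth by library is unknown for the other tables, and the read numbers cover counting error only. Unnamed entries (2861, 2059, 140 and 0 in the Kdm2b hippocampal, neurosphere, cortical and Rnf2 tables) were dropped, and the highest entry of a repeated name was kept. No per-sample column was left out.

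Each table was tested by itself with limma 3.58.1 in R 4.3.3 on log2(FPKM + 1), over genes whose mean reached 0.5 FPKM, with the study's thresholds of 0.4 and an unadjusted p of 0.05, and Benjamini-Hochberg adjustment over all genes. FPKM are not counts, so the authors' DESeq2 test was not repeated. Differences between tables were the interaction of genotype and table. Alternatives were a pseudocount of 0.1, no filter or a filter of 1 FPKM, rescaled totals, median-ratio scaling, eBayes without trend, summed entries, a replicate block, limma-voom on recovered reads, adjusted p values and each library left out. A crossed replicate block for neurospheres was added after the data were seen.

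The members and lists were chosen with earlier results of these data known. Named are the members, at most the 3 highest genes of each other list, the 10 genes most like the members, the targeted genes and markers at or near 0, with exceptions stated where they occur. The fit was tested on simulated data with known changes in 200 genes. Promoters were read from a RefSeq table for GRCm38.p6.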

Additional observations from a re-analysis of the deposited data

Results flagged for a closer look

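Cldn11 differed in its response between Kdm2b cKO hippocampi and neurospheres, by -1.39 on the log2 scale in the interaction test (adjusted p = 0.00328 in limma). The same test was passed by 26.9% of 11075 genes. The control mean of Cldn11 was 1.53 FPKM in hippocampi and 19.4 in neurospheres, and the log2(FPKM + 1) scale understates the change of low values.

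For 5 members the groups lay in opposite order in Kdm2b cortices and neurospheres, where every cKO library was above every control in the cortex and below it in neurospheres. The difference of the cortical and the neurosphere log2 fold change was 4.33 for Cldn11, 2.30 for Islr, 1.96 for Nbl1, 1.76 for S100a11 and 1.21 for Foxc1. These differences were not tested, because the cortical contrast was used to pick the genes. All 10 members had cKO above control in the cortex, so the opposite order rests on the neurosphere libraries alone. The share of all genes with cKO below control in neurospheres was not computed, so nothing is read from this count. Islr was below the filter on low values in neurospheres, so its value there is a plain difference of log2 means. No group held the 4 libraries that a check for outlying samples needs.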

How the results depend on the processing

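Counts of genes past the thresholds depended on the adjustment and on single libraries. With adjusted p values 67 cortical genes passed in place of 1100, and 0 in place of 742 in Rnf2 hippocampi. Leaving out a library gave 1015 to 1667 genes in cortex, most without control library 1, and 468 to 1580 in Rnf2 hippocampi, where 1580 passed without control library 2 and 468 without cKO library 2. The difference of Kdm2b and Rnf2 hippocampi was passed by 77 genes, and by 12 without Rnf2 cKO library 1 to 485 without Rnf2 control library 2. The difference of hippocampus and neurospheres was passed by 2983 genes, and by 1558 with rescaled totals.

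Cortical log2 fold changes stayed positive but rose with a smaller pseudocount and in limma-voom on recovered reads, to 1.52 and 1.74 for Foxc1 from 0.73 and to 4.54 and 4.96 for Cldn11 from 2.86. The difference of Nbl1 between Kdm2b and Rnf2 hippocampi changed sign to 0.0036 with a pseudocount of 0.1 and to 0.0029 with median-ratio scaling. Leaving out a library in turn, that difference ranged from -0.27 to 0.26 for Nbl1, -0.29 to 0.25 for S100a11, -0.28 to 0.20 for Lgals1, -0.049 to 0.14 for Foxc1 and -0.73 to 0.12 for Cldn11. Log2 fold changes in Kdm2b hippocampi ranged from -0.43 to 0.0066 for Dcn, -0.054 to 0.15 for Ogn, -0.23 to 0.11 for Cldn11, -0.0083 to 0.16 for Nbl1, -0.032 to 0.23 for Lgals1 and -0.069 to 0.083 for Foxc1. Dcn passed without control library 2, at -0.43. In Rnf2 hippocampi they ranged from -0.088 to 0.37 for Islr, -0.81 to 0.043 for Cldn11, -0.20 to 0.33 for Nbl1, -0.19 to 0.29 for Lgals1, -0.051 to 0.12 for Foxc1 and -0.20 to 0.34 for S100a11, and Ogn passed without control library 2, at -0.72. Lum did not pass without a filter on low values or without control library 1 (-0.48), control library 2 (-0.75) or cKO library 1 (-0.34). Dcn passed in limma-voom on recovered reads, at -0.58. Lgals1 in neurospheres did not pass without a filter, without a trend, or without either control library or cKO library 2. Cldn11 passed in neurospheres under every alternative run, from -1.59 to -1.35. The causes of these changes were not tested.

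The replicate block gave 831 genes in Kdm2b hippocampi, 2993 in neurospheres, 1197 in cortex and 989 in Rnf2 hippocampi, against 826, 3012, 1100 and 742 without it. It changed the call of Foxc1 in neurospheres and of no other member. The labels give no pairing by number, and same-numbered libraries had r of 0.05, -0.10 and -0.09 in Kdm2b hippocampi, where none was nearest to its own number, -0.05 in cortex and 0.16 in Rnf2 hippocampi, where other pairs had -0.16. Same-numbered neurospheres deviated oppositely (r = -0.28), and a crossed replicate block, chosen after seeing the data, gave 3084 genes. Depth by library is unknown for Kdm2b hippocampi and neurospheres, and control cortices held 7 to 102 recovered reads per member.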
